A study of Mus musculus with 2 samples.

Results

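Calcineurin and protein phosphatase 1 (PP1) are described here through 10 genes, chosen by gene symbol from the 55536 annotated genes of the deposited tables. All 10 had a row in both libraries. They are the calcineurin catalytic subunits Ppp3ca, Ppp3cb and Ppp3cc, the calcineurin regulatory subunit Ppp3r1, the PP1 catalytic subunits Ppp1ca, Ppp1cb and Ppp1cc, the PP1 inhibitors Ppp1r1a and Ppp1r1b, and the PP1 targeting subunit Ppp1r9b. Hippocampal total RNA was sequenced from 2 males of B6CASTF1/J, hybrids of C57BL/6J and CAST/EiJ, which were adults of 8 to 10 months. No treatment is named in the labels. Each animal gave 1 strand-specific library depleted of ribosomal RNA, from 300 ng of RNA with ERCC spike-ins, synthetic RNAs added as a control. Animal 2 gave replicate 1, and animal 4 gave replicate 2. The tissue is labelled as a layer of hippocampus, without naming the layer, and both animals carry the same donor entry. They form 1 group, so no comparison between conditions was possible, and the labels do not say whether the RNA preparations shared a day.

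Calcineurin is a phosphatase switched on by calcium and calmodulin. It is a pair of a catalytic A subunit, encoded by Ppp3ca, Ppp3cb or Ppp3cc, and a calcium-binding B subunit, encoded in most tissues by Ppp3r1. PP1 is a serine and threonine phosphatase whose catalytic subunits act on different substrates according to the regulatory subunit they bind. In neurons the pathways are linked: protein kinase A phosphorylates the inhibitors encoded by Ppp1r1a (inhibitor-1) and Ppp1r1b (DARPP-32), which then block PP1, and calcineurin removes that phosphate. Spinophilin, encoded by Ppp1r9b, holds PP1 in dendritic spines.

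The regulators share a short stretch of letters through which they dock on PP1, and the calcineurin catalytic genes share a short optional exon, so both sets of sequence are shown before the levels. They come from GENCODE M21 transcripts on mouse build GRCm38 and are reference sequence, not that of these hybrid animals. The first 111 coding bases of the inhibitors, spliced, span chr15:103534384-103537878 on the minus strand for Ppp1r1a and chr11:98349094-98350598 on the plus strand for Ppp1r1b. The third line holds 30 coding bases of Ppp1r9b at chr11:94992880-94992909 on the plus strand. Capitals mark the in-frame match to AAGATNCANTTN, where N is any base, searched on the coding strand alone.
Ppp1r1a-201: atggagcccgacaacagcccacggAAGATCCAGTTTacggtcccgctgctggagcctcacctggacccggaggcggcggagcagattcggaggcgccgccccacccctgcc
Ppp1r1b-201: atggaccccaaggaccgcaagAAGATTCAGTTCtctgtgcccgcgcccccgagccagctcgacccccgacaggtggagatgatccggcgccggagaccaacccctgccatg
Ppp1r9b-201: ccgagccggAAGATCCATTTCagcaccgca
The match began at codon 9 of Ppp1r1a-201, codon 8 of Ppp1r1b-201 and codon 448 of Ppp1r9b-201. Of 44985 complete reading frames annotated as protein-coding, 238 (0.529%) held an in-frame match, as did 118 of 21745 genes (0.543%). The letters are the consensus of the DNA of these 3 genes at their docking codons. They are not a residue pattern, since the letters also admit codons of other residues and leave out some of the same residue. That they match all 3 is not a result, and a match is a description of letters and not a measured binding site.

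The next sequences are the optional exons of the calcineurin catalytic genes. They lie at chr3:136932011-136932040 on the plus strand for Ppp3ca, chr14:20503247-20503276 on the minus strand for Ppp3cb and chr14:70225928-70225954 on the minus strand for Ppp3cc. Capitals mark the bases at which the Ppp3ca and Ppp3cb exons differ.
Ppp3ca-201: cTacTgttgaggctattgaggctgaTGaag
Ppp3cb-205: cCacAgttgaggctattgaggctgaAAaag
Ppp3cc-203: atcactacatttcaagctgtccaaaag
The Ppp3ca and Ppp3cb exons were 30 bases long, 10 codons each, were exon 13 of their transcripts, and had 26 of 30 bases in common (86.7%). Over the whole coding sequence the same genes had 74.1% of aligned bases in common. No stretch of the Ppp3cc-201 or Ppp3cc-203 reading frame matched the Ppp3ca exon at more than 15 of 30 bases without gaps, which was also the best match found in the Ppp3ca transcript that lacks the exon. The optional exon of Ppp3cc was a different one, 27 bases or 9 codons long, and was exon 11 of its transcript.

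The libraries held 23458117 and 29584307 expected counts, and both held the markers listed for hippocampal glutamatergic neurons. These 6 markers summed to 2942 and 2945 TPM, led by Camk2a, and none was at 0. Other lists were present too: astrocyte markers summed to 1335 and 1272 TPM, oligodendrocyte markers to 1531 and 1516, and neocortex markers to 77.6 and 76.8. Whether the 6 markers tell hippocampus from neocortex was not tested. The 9 choroid plexus markers summed to 17.9 TPM in replicate 1 and 1792 TPM in replicate 2, and 8 of the 9 passed the test between the libraries given later. Because the tissue was sequenced in bulk, fewer cells of a type and less RNA per cell cannot be told apart. TPM divides the reads of a transcript by its length and scales all transcripts of a library to the same total, so levels can be compared between genes.

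Calcineurin messages ranged from among the highest in the tissue to low. Ppp3ca (chr3:136670124-136937727), the catalytic A alpha subunit, was at 578.9 TPM in replicate 1 and 548.0 in replicate 2, a mean of 563 ± 21.9 (SD, n = 2). It lay above 99.6% of the protein-coding genes detected at 1 TPM or more in each library. Ppp3cb (chr14:20499364-20546573), the A beta subunit, was at 147.1 and 146.4 TPM, a mean of 147 ± 0.495. Ppp3cc (chr14:70217865-70289471), the A gamma subunit, best known from testis, was at 9.44 and 10.6 TPM, a mean of 10.0 ± 0.799, from 255 and 381 expected counts. The A subunit messages were therefore unequal in both animals by far more than the libraries differed.

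Of the TPM of the 3 catalytic A genes, Ppp3ca took 78.7% and 77.7%, Ppp3cb 20.0% and 20.8%, and Ppp3cc 1.28% and 1.50%. Ppp3ca exceeded Ppp3cb by 3.94-fold and 3.74-fold, and Ppp3cb exceeded Ppp3cc by 15.6-fold and 13.8-fold. The same order held in both libraries and with the second set of estimates the authors deposited, in which the Ppp3ca share was 80.7% and 81.2%. None of the 31-base stretches of the leading Ppp3ca, Ppp3cb or Ppp3cc transcript occurred in a transcript of another gene. Other transcripts of these genes were not searched. Among them was Ppp3ca-202, which held 65.1% and 65.9% of the expected counts of Ppp3ca.

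Ppp3r1 (chr11:17159263-17200375), the B subunit that every calcineurin A subunit binds, was at 411.4 and 424.7 TPM, a mean of 418 ± 9.40. Set against the summed TPM of the 3 A genes, it reached 0.559 in replicate 1 and 0.602 in replicate 2, and 0.491 and 0.50 by the second estimates. The B subunit message was thus below the summed A subunit messages in both libraries. The only coding transcript of the gene, of 170 codons, held 98.4% and 99.3% of the gene's TPM. Some 15.3% of the 31-base stretches of that transcript also occur in Wdr92, a gene on the same strand that overlaps it and was at 5.52 and 5.07 TPM. The testis B subunit gene Ppp3r2 was at 0.610 and 0.180 TPM.

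The PP1 catalytic genes lay much closer together than the calcineurin catalytic genes. Ppp1cb (chr5:32458843-32517433), the beta subunit, known for its place in myosin phosphatase, was at 187.5 and 192.2 TPM, a mean of 190 ± 3.36. Ppp1ca (chr19:4192065-4195420), the alpha subunit, was at 130.7 and 129.0 TPM, a mean of 130 ± 1.24. Ppp1cc (chr5:122158278-122175273), the gamma subunit, was at 115.3 and 109.7 TPM, a mean of 113 ± 3.95. Their shares of the summed PP1 catalytic TPM were 43.2% and 44.6% for Ppp1cb, 30.2% and 29.9% for Ppp1ca, and 26.6% and 25.5% for Ppp1cc. The 3 calcineurin A genes together exceeded the 3 PP1 catalytic genes by 1.70-fold and 1.64-fold, and by 1.91-fold and 1.97-fold with the second estimates. These folds are of whole-gene TPM, and the share of coding transcripts, given below, was lower for the PP1 genes in the first estimates.

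Among the leading coding transcripts of these genes, the only ones searched, that of Ppp1cc had the most in common with other genes. Of its 31-base stretches, 60.7% occur in other genes. Most of those, 59.1% of the transcript, occur in Ppp1ccb, a transcribed processed pseudogene on chromosome 7 that was at 33.4 and 26.0 TPM. Reads from either gene can be assigned to the other, and how much of either value this moved was not tested.

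The regulators of PP1 differed widely in level. Ppp1r9b (chr11:94991035-95006899), spinophilin, was at 406.7 and 427.6 TPM, a mean of 417 ± 14.8, which is 0.938 and 0.992 times the sum of the 3 PP1 catalytic genes. It was 4.57-fold and 5.59-fold above Ppp1r9a, which encodes the related neurabin. Ppp1r1a (chr15:103530279-103538003), inhibitor-1, was at 55.7 and 54.8 TPM, a mean of 55.3 ± 0.665. Ppp1r1b (chr11:98348404-98357796), the DARPP-32 gene, known above all from the medium spiny neurons of the striatum, was at 26.2 and 38.4 TPM, a mean of 32.3 ± 8.66. Both inhibitor genes together were at 0.189 and 0.216 times the PP1 catalytic sum, again of whole-gene TPM. Of that pair, Ppp1r1a took 68.0% in replicate 1 and 58.8% in replicate 2.

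**Figure D1:**
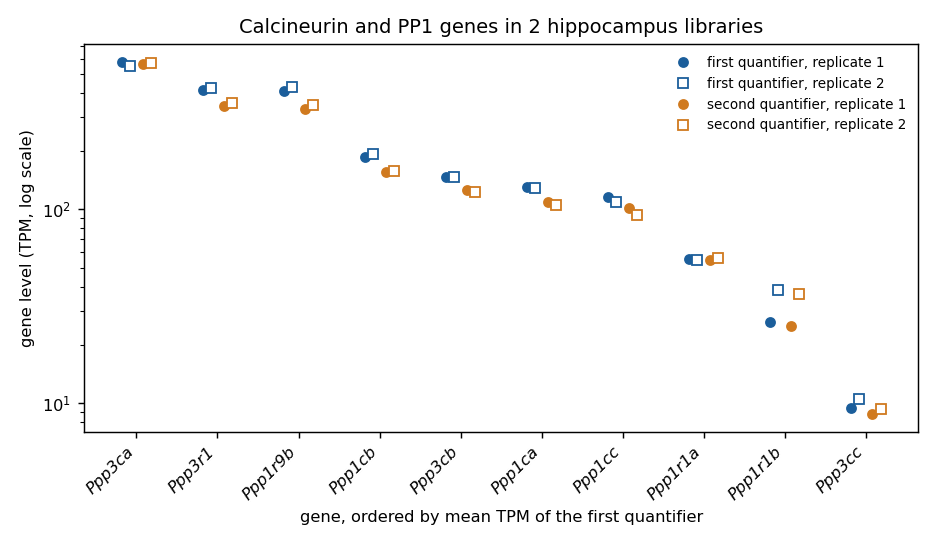
Level of the 10 genes in TPM on a log scale, with circles for replicate 1 and squares for replicate 2, blue for the first set of estimates and orange for the second. Ppp3ca, Ppp3r1 and Ppp1r9b are at the top, Ppp3cc is lowest at 9.44 and 10.6 TPM, and Ppp1r1b has the widest gap between the libraries, 26.2 against 38.4 TPM.

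In order of mean TPM the genes ran Ppp3ca, Ppp3r1, Ppp1r9b, Ppp1cb, Ppp3cb, Ppp1ca, Ppp1cc, Ppp1r1a, Ppp1r1b and Ppp3cc. At 8 of the 9 steps the values of the neighbours in the 2 libraries did not overlap. Ppp3r1 and Ppp1r9b overlapped, so their order is not set by these data. Ppp1ca and Ppp1cc did not overlap in TPM, but the lower and upper TPM bounds deposited beside the values overlapped for that pair in replicate 1 and were apart in replicate 2. Of the 20 TPM values, 12 lay inside their own bounds and 8 above them, while all 20 posterior means, a second deposited form of the same estimate, lay inside. With 2 animals, no exact test of a single value can pass 0.05, and the order is a description.

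The calcineurin genes also differed in which coding form was listed. The deposited percentages split each gene's TPM among its annotated transcripts, 58 in all for the 10 genes, and transcripts of 1 gene share most of their letters, so a split is an estimate. For Ppp3ca, the form with the 30-base exon, Ppp3ca-201 of 521 codons, took 52.1% in both libraries. Ppp3ca-202, of 511 codons and without the exon, took 45.3% and 46.3%. The exon was therefore in 53.5% and 53.0% of the TPM of coding Ppp3ca transcripts that span its site, and in 54.3% and 54.2% by the second estimates. These models also differ in length, 2194 against 4758 bases, and the 30 bases of the exon are the only ones found in Ppp3ca-201 alone, so the share of the exon and that of the longer end cannot be told apart in these tables.

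For Ppp3cb, the related exon was in 75.5% and 75.2% of the TPM of coding transcripts that span its site, and in 66.2% and 66.3% by the second estimates. Ppp3cb-205, with the exon, took 56.2% and 59.1% of the gene, Ppp3cb-202, also with it, 10.5% and 10.9%, and Ppp3cb-201, without it, 21.6% and 23.1%. The share of TPM with the exon was higher for Ppp3cb than for Ppp3ca in both libraries and by both sets of estimates. Ppp3cb-205 and Ppp3cb-201 have no base of their own, and the Ppp3ca share carries the limit given above, so this compares estimated splits. The Ppp3cb forms differ at a second place: Ppp3cb-201 and Ppp3cb-202 hold 3 more coding bases, at chr14:20509498-20509500, that Ppp3cb-205 lacks.

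Ppp3cc was too low for its forms to be resolved. Ppp3cc-201, of 513 codons, took 78.2% and 95.4%. Ppp3cc-203, which adds the 27-base exon, took 10.3% in replicate 1 and was listed at 0 in replicate 2, and by the second estimates took 25.0% and 4.56%. Those shares rest on 255 and 381 expected counts for the whole gene, and they moved between the libraries in either set of estimates.

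In the first estimates the PP1 catalytic genes held a smaller share of coding RNA than the calcineurin catalytic genes. Transcripts annotated as protein-coding took 97.4% and 98.4% of Ppp3ca and 92.4% and 96.6% of Ppp3cb. They took 46.0% and 57.7% of Ppp1ca, 27.0% and 25.1% of Ppp1cb, and 51.0% and 56.3% of Ppp1cc. In the second estimates the coding shares of Ppp1ca, 88.2% and 93.9%, were in the range of the calcineurin genes, and those of Ppp1cb and Ppp1cc were again lower. Among all 10 genes the leading transcript was the same in both libraries and both sets of estimates for 9, and it was a coding one throughout for 8. Ppp1r1a was the gene whose leader changed, and Ppp1cb was the gene whose leader was never annotated as protein-coding.

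**Figure D2:**
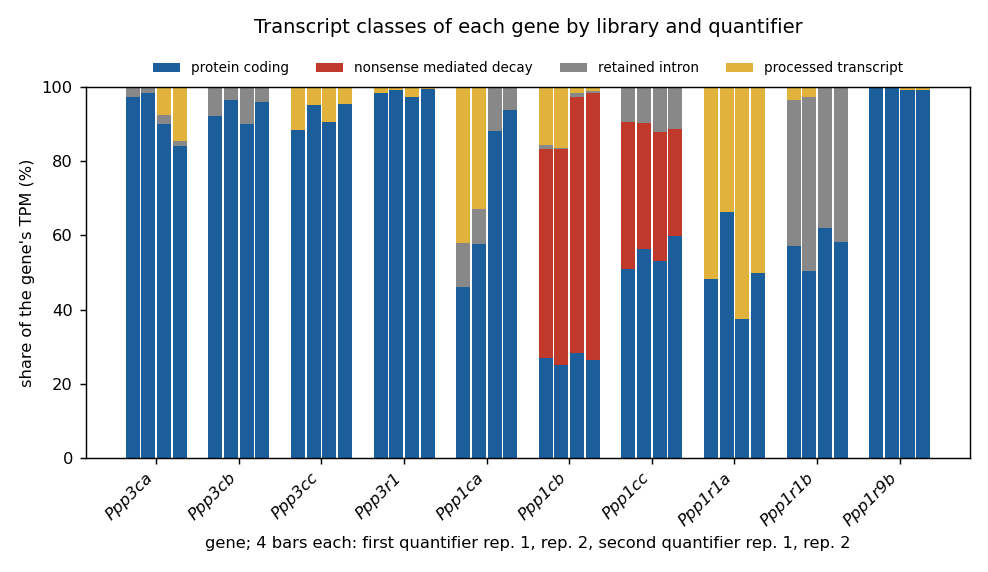
Share of each gene's TPM (%) by annotated transcript class, with 4 bars a gene: first estimates in replicates 1 and 2, then second estimates in replicates 1 and 2. Coding transcripts (blue) fill 92.4% or more of Ppp3cb in the first estimates but 27.0% and 25.1% of Ppp1cb, and for Ppp1ca the sets of estimates differ.

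Ppp1cb was led by Ppp1cb-205, an 861-base transcript annotated as a target of nonsense-mediated decay, a pathway that breaks down messages. Its annotated reading frame ends at the same stop as that of Ppp1cb-201, with a splice beyond that stop. Ppp1cb-205 took 42.9% and 41.8% of the gene's TPM, which is 80.5 and 80.4 TPM, but 14.0% and 14.1% of the gene's expected counts. The full-length coding transcript Ppp1cb-201, of 5962 bases, took 27.0% and 25.1% of the TPM and 67.9% and 65.1% of the counts. TPM divides counts by transcript length, so a short transcript takes a larger share of TPM than of counts. All 861 bases of Ppp1cb-205 also lie in other transcripts of the gene, but its last splice is annotated in no other Ppp1cb transcript. Ppp1cb-203, annotated as a decay target too, took 13.5% and 16.4% and has the same 327-codon reading frame as Ppp1cb-201. Ppp1cb-202, with no reading frame, took 15.7% and 16.4% in the first estimates and 1.47% and 1.08% in the second.

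**Figure D3:**
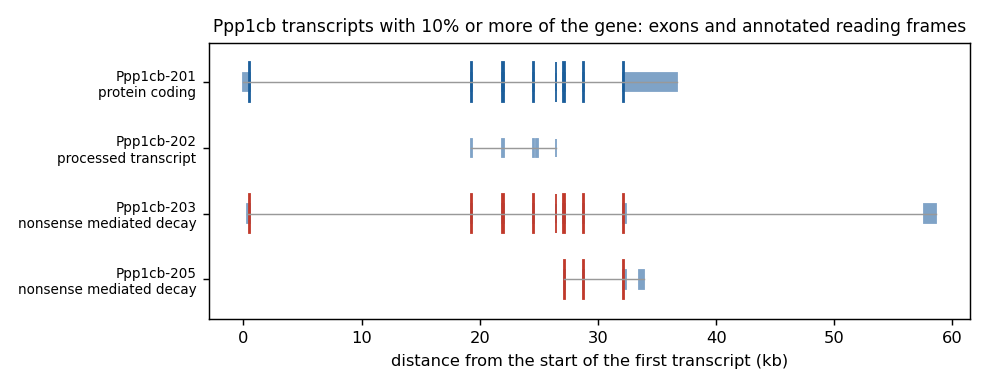
Exons (light boxes) and annotated reading frames (tall boxes, dark blue in the coding transcript and red in the decay-annotated ones) of the 4 Ppp1cb transcripts with 10% or more of the gene in both libraries, by distance from the start of the first transcript in kb. Ppp1cb-203 carries the same 327-codon frame as Ppp1cb-201 and ends in a farther exon, and Ppp1cb-205 covers the last coding exons only.

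When only transcripts annotated with the full catalytic reading frame were counted, the order of the PP1 genes depended on the estimates. Ppp1cb-205, at 80.5 and 80.4 TPM in the first set, was not counted. Its annotated frame runs from its first base to the stop of Ppp1cb-201, and whether its RNA extends farther upstream was not tested. The full-frame level of Ppp1cb may therefore be too low. In the first set, full-frame TPM was 75.9 and 79.7 for Ppp1cb (Ppp1cb-201 and Ppp1cb-203 together), 60.2 and 74.4 for Ppp1ca, and 57.5 and 61.8 for Ppp1cc. In the second set it was 70.0 and 74.6 for Ppp1cb, 96.4 and 99.4 for Ppp1ca, and 52.1 and 55.8 for Ppp1cc. Ppp1cb was the highest in the first set and Ppp1ca in the second, with no overlap between them in either. The sets differed at Ppp1ca-204, a 1318-base transcript with no reading frame and 53 bases of its own, which took 42.1% and 32.5% of Ppp1ca in the first set and was listed at 0 in the second.

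**Figure D4:**
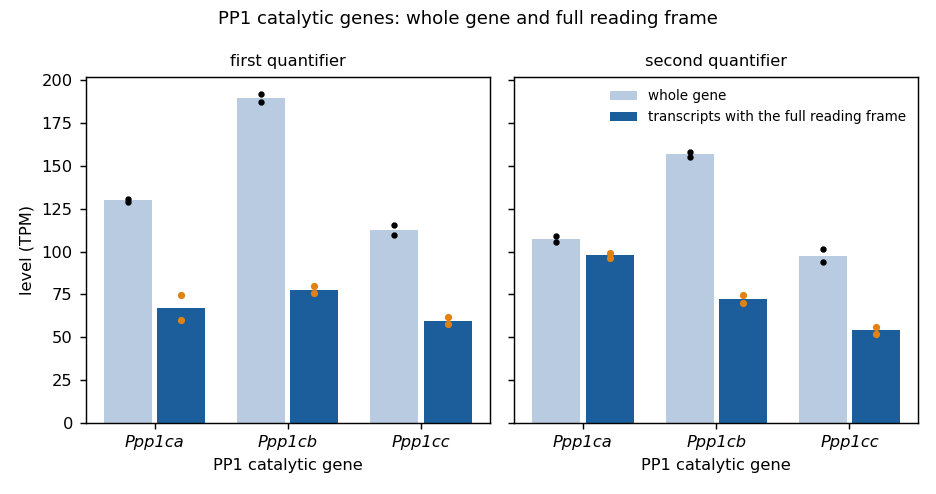
Level in TPM of the PP1 catalytic genes by first and second estimates. Light bars are the whole gene, dark bars the transcripts annotated with the full reading frame. Bars are means and points the 2 libraries. Whole-gene Ppp1cb is highest in both panels, while the highest full-frame gene is Ppp1cb in the left panel and Ppp1ca in the right.

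Ppp1cc has known splice forms that differ in the last codons of the protein: a widely expressed short form and a longer form known from testis. The coding letters in which the annotated forms differ are shown. Ppp1cc-202, of 323 codons, ends in 29 coding bases at chr5:122174116-122174144, with the stop codon in capitals. Ppp1cc-201, of 337 codons, splices out those 29 bases and ends in 71 coding bases farther along the same last exon of Ppp1cc-202, of which the first 30 lie at chr5:122174980-122175009. Both are on the plus strand.
Ppp1cc-202: gtatgatcacaaagcaagcaaagaaaTAG
Ppp1cc-201: ttggatcaggcctgaacccgtccattcaga
Ppp1cc-202, the short form, took 49.8% and 56.3% of the gene's TPM. Ppp1cc-201, the long form, was listed at 0 in both libraries, and in the second estimates took 0.581% and 0. The 71 bases are untranslated sequence in Ppp1cc-202, and Ppp1cc-201 has no base and no splice junction of its own, so neither its letters nor its junctions set it apart. The splice of the long form is annotated in 5 Ppp1cc transcripts. Together they took 26.1% and 28.7% of the gene's TPM, or 22.2% and 23.7% by the second estimates. Nearly all of that in the first estimates was Ppp1cc-209, at 25.0% and 28.4%. It is a 557-base transcript with that splice, annotated as a decay target and with no base of its own. Being short, it took far less of the gene's counts, 7.3% and 8.1%, or 3.3% and 3.9% by the second estimates. The long-form splice was therefore assigned a share in both libraries, and the 0 for Ppp1cc-201 is the estimate of how reads on it were divided. Ppp1cc-209 was not searched for stretches shared with the pseudogene Ppp1ccb, and whether reads from Ppp1ccb entered this share was not tested.

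The docking letters were taken from the Ppp1r1a-201, Ppp1r1b-201 and Ppp1r9b-201 frames, so their presence in those forms is not a result. Ppp1r1b-201, of 194 codons, took 55.5% and 47.5% of Ppp1r1b. Ppp1r1b-204 and Ppp1r1b-206, of 158 codons, lack the first 36 codons and with them the match printed above. They took 0 and 1.55% in replicate 1, and 0 and 2.87% in replicate 2. By the second estimates Ppp1r1b-204 took 4.88% and 7.88%, and Ppp1r1b-206 took 0.50% and 2.71%. Transcripts with a retained intron held 39.6% and 47.0% of the gene. Of these, Ppp1r1b-202 took 37.1% and 26.7%, or 12.6% and 5.08% by the second estimates, and Ppp1r1b-205 took 2.58% and 20.3%, or 25.4% and 36.6% by the second estimates. The short coding forms were thus the smaller part of Ppp1r1b throughout, and the retained-intron share was split differently by each set of estimates.

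Ppp1r1a has 1 coding transcript, Ppp1r1a-201 of 171 codons, and its share was unstable. It took 48.2% and 66.4% in the first estimates and 37.5% and 49.9% in the second. The rest went to Ppp1r1a-202, an 821-base transcript with no reading frame and no base of its own, so the gene's level is better determined than its split.

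Ppp1r9b had a measurable share of a form without the docking letters. Ppp1r9b-201, of 817 codons, took 80.7% and 80.0%, which is 328.3 and 341.9 TPM. Ppp1r9b-202, of 393 codons, took 19.3% and 20.0%, or 78.4 and 85.4 TPM, and 11.3% and 10.1% by the second estimates. It lacks the first 457 codons of Ppp1r9b-201, among them the match at codon 448, and opens instead with 33 codons of its own at chr11:94996436-94996534 on the plus strand. Those coding bases are shown as the part that tells the short form from the long one.
Ppp1r9b-202: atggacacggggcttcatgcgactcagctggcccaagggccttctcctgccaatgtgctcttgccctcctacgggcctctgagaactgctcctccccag
Both forms hold bases found in no other transcript of the gene, 1845 in Ppp1r9b-201 and 471 in Ppp1r9b-202, on which reads can tell them apart.

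None of the 10 genes passed the test between the libraries, which was made on edgeR's fit across all genes. Of 16123 genes tested, 130 (0.806%) passed an adjusted p of 0.05, 60 higher and 70 lower in replicate 2. Before adjustment, 778 genes were under 0.05. Of the 10 genes, 0 passed and only Ppp1r1b was under 0.05 before adjustment. The test has 1 residual degree of freedom, so a p that missed the threshold does not show equal levels, and it compares these libraries and no condition. The spread that each gene is judged against was estimated from these same libraries. The test therefore asks only which genes differ more than genes of like level do.

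Ppp1r1b had the widest gap. Scaled by TMM, which sets the libraries level over the bulk of genes, its CPM (counts scaled to a common library total) was 23.9 in replicate 1 and 34.9 in replicate 2, a log2 ratio of 0.55 or 1.46-fold. In edgeR's fit across all genes its adjusted p was 0.841 and its p before adjustment 0.0271. The other 9 genes had log2 ratios between 0.05 for Ppp3ca and 0.26 for Ppp3cc. All 10 ratios were above 0, with a median of 0.16 against 0.00 for all tested genes. The TPM values given above did not all rise: Ppp3ca, Ppp3cb, Ppp1ca, Ppp1cc and Ppp1r1a were lower in replicate 2. In TPM, Ppp3cc, Ppp3r1, Ppp1cb, Ppp1r1b and Ppp1r9b were higher in replicate 2. With the libraries scaled by the ERCC spike-ins the ratios of 8 of the 10 were below 0, while the median of all genes moved to -0.23. That scaling shifts every gene alike, so whether a ratio lies above or below 0 is set by the scaling chosen. The median of the 10 was above that of all genes with either, at -0.07 against -0.23 with the spike-ins. This was not particular to the 10: with TMM the 80 tested marker genes also had a median of 0.16.

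The striatal markers are given beside Ppp1r1b, since the striatum is where that gene is best known. The 10 markers, Ppp1r1b not among them, summed to 114 TPM in replicate 1 and 99.8 in replicate 2, and none was at 0 in both libraries. Of the 8 that could be tested, 0 passed. Their log2 ratios ran from -0.35 for Pde10a to 0.56 for Drd2, with a median of 0.35. The highest by mean TPM, Rasd2, was at 36.4 and 31.8 TPM, and the lowest, Adora2a, at 0.540 and 0.470. Rasd2 was thus above Ppp1r1b in replicate 1 and below it in replicate 2. The part of the striatal markers, and of the choroid plexus markers that were higher in replicate 2, in the Ppp1r1b gap was not tested.

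**Figure D5:**
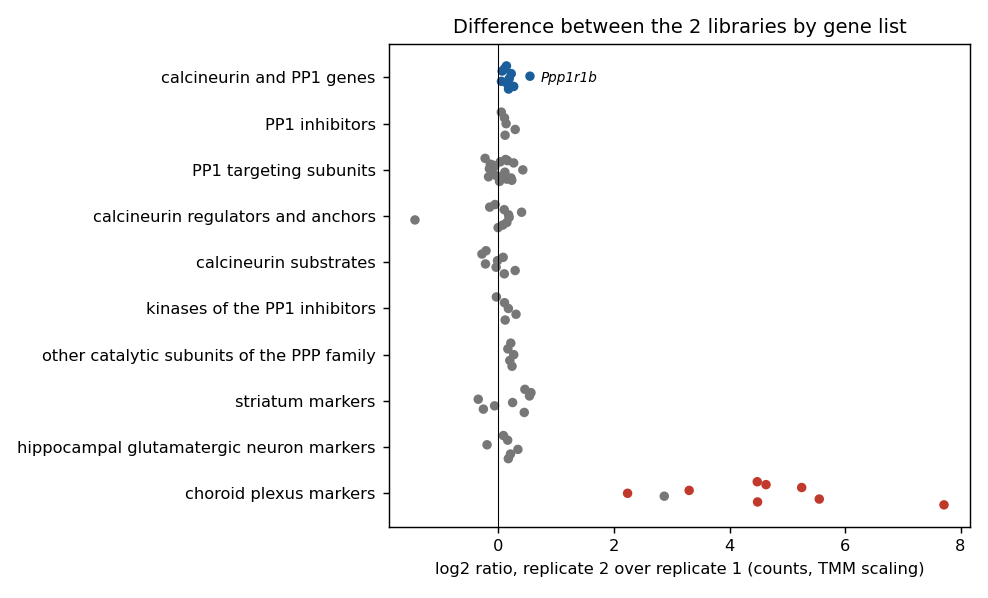
Log2 ratio of replicate 2 over replicate 1 from TMM-scaled counts, 1 point a gene, for the 10 calcineurin and PP1 genes (blue), the pathway lists and 3 marker lists; red points passed the test across all genes. The 10 genes lie between 0.05 and 0.55, with Ppp1r1b farthest right (with spike-in scaling, which moves the median of all genes to -0.23, 8 of them are below 0), and the red points are all choroid plexus markers.

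The other genes of the pathway showed what the phosphatases sit among. Of 58 such genes in 6 lists, 54 could be tested, and 0 passed in either direction, a share near the 0.806% of all tested genes. Before adjustment, 0 were under 0.05, against 778 of 16123. Their median log2 ratio was 0.10, against 0.00 for all tested genes.

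Among 10 regulators and anchors of calcineurin, Ppia and Fkbp1a were the highest, at 674 ± 35.6 and 435 ± 11.99 TPM. They encode cyclophilin A and FKBP12, the proteins through which ciclosporin and tacrolimus inhibit calcineurin, and Ppia was above Ppp3ca in both libraries. Chp1, a calcineurin B homologue, followed at 84.6 ± 0.120 TPM, and Ppp3r2 was lowest at 0.395 ± 0.304. Among 8 calcineurin substrates and downstream targets, Dnm1, which encodes the endocytic enzyme dynamin 1, was at 607 ± 12.8 TPM. Crtc1, a coactivator of CREB, was at 91.9 ± 11.4 and Ptpn5, the tyrosine phosphatase STEP, at 55.6 ± 2.16 TPM. Nfatc4, a transcription factor that calcineurin activates, was the lowest at 1.22 ± 0.615.

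Among 7 further PP1 inhibitors, Ppp1r11 (inhibitor-3) was at 59.6 ± 0.502 TPM, Ppp1r2 (inhibitor-2) at 43.3 ± 3.05 and Ppp1r14b at 27.7 ± 0.127. Ppp1r14d was listed at 0 in both libraries, where 0 counts allow up to 3 counts. By the first estimates Ppp1r11 was above Ppp1r1a, but by the second it was below, at 48.6 and 52.2 TPM against 55.0 and 56.3. Ppp1r2 lay between Ppp1r1a and Ppp1r1b by the first estimates, and by the second was below Ppp1r1b in replicate 2, at 32.2 against 36.7 TPM. Among 21 further PP1 targeting subunits, Phactr1 was at 151 ± 5.35 TPM, Ppp1r9a at 82.7 ± 8.80, Ppp1r12c, a myosin phosphatase subunit, at 65.5 ± 12.2, and Ppp1r3d, a glycogen-targeting subunit, lowest at 2.81 ± 0.212. Ppp1r9b was above all 21 in both libraries.

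Among 7 other catalytic subunits of the same phosphatase family, Ppp5c was at 81.6 ± 0.339 TPM, and the PP2A subunits Ppp2cb and Ppp2ca at 63.2 ± 1.39 and 57.6 ± 1.68. Ppef1 was lowest at 0.290 ± 0.0990. In whole-gene TPM, each of Ppp3ca, Ppp3cb, Ppp1ca, Ppp1cb and Ppp1cc was above all 7 in both libraries, and Ppp3cc was below all but Ppef1 and Ppef2. In the first set, the full-frame TPM of Ppp1ca, Ppp1cb and Ppp1cc was below the whole-gene level of Ppp5c in both libraries. Full-frame TPM of the 7 was not computed. The kinases that act on the inhibitors were Prkacb at 131 ± 3.29 and Prkaca at 129 ± 11.9 TPM, the catalytic subunits of protein kinase A, then Cdk5r1 at 95.9 ± 1.73, Cdk5r2 at 79.7 ± 2.09 and Cdk5 at 63.2 ± 4.84. Cdk5 phosphorylates DARPP-32 at another residue, with Cdk5r1 or Cdk5r2 as its activator.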

How the data were processed

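Per the deposited file descriptions, reads were assigned to mm10 with annotation M21. Programs and versions were "not given in the sources used here". Deposited by the authors were 2 sets of estimates: gene and transcript tables with expected counts, TPM, TPM bounds and the percent of a gene's TPM per transcript (first set), and a transcript table with estimated counts and TPM (second set, summed here per gene). Reads of B6CASTF1/J animals were compared with a C57BL/6J reference, and the effect was not tested. Spike-in counts were 0.210% and 0.243% of the total.

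Expected counts were rounded and the genes with a CPM of 1 or more in at least 1 library tested in edgeR 4.0.16 (R 4.3.3): TMM scaling, intercept-only design, trended dispersion, and the residual deviance of each gene against chi-square with 1 degree of freedom, adjusted by Benjamini-Hochberg over all tested genes. DESeq2 1.42.0 gave alternative size factors. The method was tested on simulated data. The quasi-likelihood test was not used because 1 group leaves no coefficient to test. Letters shared between genes were counted over stretches of 31 bases.

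The genes and lists were chosen with earlier results of these data known. Named are all 10 genes, the 3 highest and the lowest of each list by mean TPM (all where a list has 5 or fewer), and transcripts with 10% or more in both libraries by either set. Further transcripts (Ppp3cc-203, Ppp1cc-201, Ppp1r1b-204, Ppp1r1b-206), Ppp1r9a, Ppp1ccb and Wdr92 were added after their values were seen, as were the marker sums. Of the other markers, Drd2 and Pde10a, and likewise Ppef2, were named after their values were seen. Replicates are separate animals by number. Counts limit precision, and stated spreads cover n = 2.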

Additional observations from a re-analysis of the deposited data

How the results depend on the processing

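No paired analysis was possible because there is 1 group, so no sample has a partner in another group. The median level of the 10 genes was 138 TPM. It was 116 by the second estimates, 134 by the posterior mean and 279 when TPM was rescaled over nuclear protein-coding genes, each further off than the spread of the libraries, and 138 to 139 with either animal left out. The order of levels kept 8 of 9 neighbours apart in all 3 sets of values, and all 3 gene families kept their leading gene. Between the libraries, 130 genes passed; 341 did with a common dispersion, and 94 to 130 under the other alternatives. Of the 10 genes, 0 passed under all 6 settings. Spike-in scaling moved the median log2 ratio of all genes from 0.00 to -0.23, and by that common shift the ratios of 8 genes lay below 0: -0.18 for Ppp3ca, -0.17 for Ppp1cc, -0.12 for Ppp1cb, -0.0923 for Ppp1ca, -0.0760 for Ppp3cb, -0.0562 for Ppp3r1, -0.0450 for Ppp1r9b and -0.0090 for Ppp1r1a. The adjusted p of Ppp1r1b ranged from 0.736 to 1.0 over all settings. The leading transcript was a coding one for 9 genes, for 8 by the second estimates, and for 8 to 9 with either animal left out. No gene of the pathway lists passed by either set of estimates. Of the 22 transcripts named by rule, 17 moved by more than the spread of the libraries with the second estimates.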
